A study of Homo sapiens with 18 samples.

Results

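The genes examined were 10 of the 62754 in the gene count matrix: the ligands IL6, LIF, IL11, CSF1, CSF2 and CSF3 and the receptors IL6ST, OSMR, LIFR and IL6R. They were taken by the gene symbol that the matrix gives beside each identifier, in all 6 conditions of the study. The conditions were RNA sequencing of EA.hy926, a human endothelial line made by fusing an umbilical vein endothelial cell with a lung carcinoma line, and each had 3 biological replicates (18 libraries). Mock cells received the transfection reagent with no siRNA, siNT cells 10 nM of a non-targeting siRNA, and siELMO1 cells 10 nM of a pool of siRNAs against ELMO1, an adaptor protein of Rac activation. All cells were starved in low serum, and 48 h after transfection they were lysed (0 h) or first exposed for 24 h to poly(I:C) (1 μg/ml), a synthetic double-stranded RNA that the receptor TLR3 senses. The study asked how loss of ELMO1 changes endothelial cells before and after this stimulus. Starvation and the transfection reagent were therefore shared by all groups, whereas Mock cells carried no siRNA, and no group went 24 h without poly(I:C), so the poly(I:C) response also contains 24 h of further culture.

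The IL6 family signals through IL6ST (gp130), a receptor chain shared by its members. IL6 and IL11 first bind a private receptor (IL6R, IL11RA) and then pair gp130 with itself, LIF pairs gp130 with LIFR, and oncostatin M pairs it with OSMR or LIFR, after which JAK kinases phosphorylate STAT3. The colony-stimulating factors drive the growth and activation of myeloid cells, CSF1 (M-CSF) for macrophages, CSF2 (GM-CSF) for granulocytes and macrophages, and CSF3 (G-CSF) for neutrophils, and inflamed endothelium is a known source of CSF2, CSF3 and IL6.

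The 18 libraries held between 40.4 and 73.9 M estimated counts. All levels below are CPM, the count scaled to the library's total with its TMM factor. ELMO1 was at 0.155 to 0.419 CPM in the siELMO1 libraries and at 1.52 to 3.58 CPM in all others. Of 10 endothelial markers, 9 had a mean of at least 1 CPM in every group, and their summed level was 2520 to 3060 CPM in the siELMO1 libraries and 1430 to 2050 CPM in the others. CLDN5 stayed under 1 CPM. Of 8 lung epithelial markers, 2 or 3 reached 1 CPM (KRT8 and KRT18 carried the sum of 484 to 1090 CPM) and 3 to 5 were at 0. Of 7 leukocyte markers only LYZ reached a mean of 1 CPM, and the sum was 4.59 to 7.68 CPM in siELMO1 cells at 24 h against 1.62 to 3.78 CPM in the other groups, with CD3E and TYROBP at 0 throughout. Of 5 fibroblast and mural markers only RGS5 reached 1 CPM (sum 19.3 to 71.1 CPM), with DCN and LUM at 0 in every group. At 0 h, siELMO1 replicate 1 and replicates 2 and 3 stood apart. The chi-square per gene was 60.4 and 67.1 between them and 9.41 to 25.4 for all other replicate pairs. Replicate 1 had 1.86% mitochondrial counts, within the 1.31% to 2.42% of the other groups, whereas replicates 2 and 3 had 4.02% and 3.95%. Replicates 2 and 3 also had the lowest totals of the series (40.4 and 51.0 M, against 71.1 M in replicate 1). Results that rest on replicate 1 are given with and without it, and without it the group consists of replicates 2 and 3. At 24 h the study saw many more dead cells in siNT than in Mock or siELMO1 cultures, and in these bulk libraries fewer cells expressing a gene and less of its RNA per cell cannot be told apart.

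All 10 genes passed the filter on low counts. A gene was called higher or lower when its Benjamini-Hochberg adjusted p in edgeR's quasi-likelihood test was under 0.05. With poly(I:C), 8 of the 10 were called in Mock cells, where 60.3% of all 15167 genes tested were called, 8 in siNT cells (53.8% of all genes) and 9 in siELMO1 cells (54.9% of all genes). Calls were thus common among all genes. Called with a fold change over 2, 5 of the 6 ligands were higher in Mock cells (8.6% of all genes), 4 in siNT cells (6.45%) and 5 in siELMO1 cells (7.71%). The median log2 fold change of the 6 ligands was 3.71 in Mock, 2.21 in siNT and 4.17 in siELMO1 cells, and the median over all genes stayed within 0.041 of 0 in every comparison. IL6, LIF, CSF1 and CSF3 rose in all 3 transfections, CSF2 in Mock and siELMO1 cells, and IL11 in none. Among the receptors OSMR rose and IL6R fell in all 3 transfections, whereas IL6ST rose in Mock and siNT cells and LIFR fell in siNT and rose in siELMO1 cells.

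**Figure D1:**
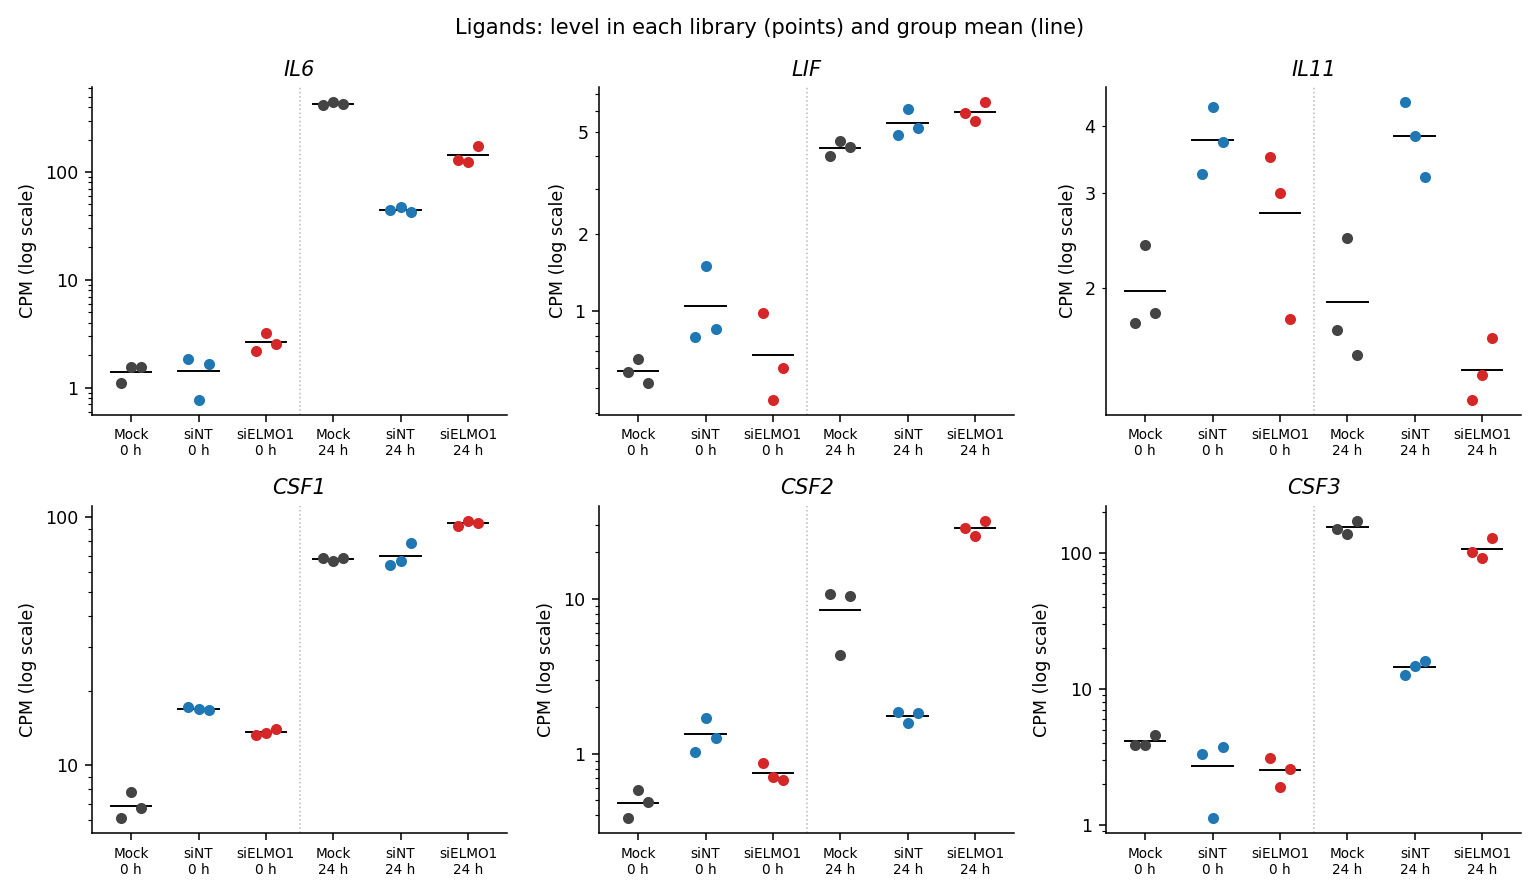
CPM after TMM scaling of the 6 ligands (log axes) in each of the 3 libraries of every condition, with the group mean as a line. At 24 h IL6, CSF2 and CSF3 were lowest in siNT cells (means of 44.7, 1.75 and 14.5 CPM), whereas LIF and CSF1 were within 1.5-fold of each other across the 3 transfections.

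Promoter sequence was at hand for IL6, IL11, CSF2 and the 4 receptors, from RefSeq (GRCh38.p14, 250 bases before to 50 after the transcription start, printed 5′ to 3′ on the gene's strand). Those of 3 are shown: IL6 and CSF2, which rose in Mock and siELMO1 cells and were lower in siNT cells, and IL11, the ligand that poly(I:C) raised in none. They lie at chr7:22726950-22727249 (plus strand), chr5:132073539-132073838 (plus strand) and chr19:55370414-55370713 (minus strand). Capitals mark matches to the NF-kB letters (GGG, any 5 bases, CC) on either strand, with overlapping matches joined.
IL6 promoter: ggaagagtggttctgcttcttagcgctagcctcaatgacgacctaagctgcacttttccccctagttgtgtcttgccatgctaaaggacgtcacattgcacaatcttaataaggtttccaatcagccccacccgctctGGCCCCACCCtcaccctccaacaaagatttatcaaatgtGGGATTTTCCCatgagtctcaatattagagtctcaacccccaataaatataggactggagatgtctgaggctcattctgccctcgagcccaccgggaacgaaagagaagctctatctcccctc
CSF2 promoter: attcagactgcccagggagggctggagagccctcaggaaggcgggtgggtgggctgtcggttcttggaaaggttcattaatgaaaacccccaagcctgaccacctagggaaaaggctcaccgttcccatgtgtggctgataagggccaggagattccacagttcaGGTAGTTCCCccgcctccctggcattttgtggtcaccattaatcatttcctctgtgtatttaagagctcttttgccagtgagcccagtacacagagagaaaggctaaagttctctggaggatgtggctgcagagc
IL11 promoter: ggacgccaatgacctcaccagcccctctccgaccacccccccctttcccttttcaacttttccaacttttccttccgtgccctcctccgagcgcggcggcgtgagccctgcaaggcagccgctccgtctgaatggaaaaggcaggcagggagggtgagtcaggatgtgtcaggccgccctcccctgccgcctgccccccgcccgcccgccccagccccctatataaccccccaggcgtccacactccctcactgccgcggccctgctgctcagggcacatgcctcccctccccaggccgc
IL6 held 3 matches, at −112 to −103, −73 to −64 and −72 to −63 from the start, the latter pair overlapping on opposite strands. CSF2 held 1, at −85 to −76, and IL11 none. These letters are common, since 58.7% of 35116 promoters of the same length held a match. A C/EBP match (TTGCNNAA, in 10.5% of promoters) lay at −155 to −148 in IL6, and an AP-1 match (TGANTCA, in 7.71%) at −96 to −90 in IL11, which also had 4 GC boxes (GGGCGG, in 45.0%). The interferon response core (GAAA, any 2 bases, GAAA), in 3.57% of promoters, matched none of the member promoters searched. Among the receptors, IL6ST had 4 and IL6R 3 NF-kB letter matches and OSMR had 1. LIFR had 3 promoters in the table, which held 5, 1 and none. Each match is a match of letters and not a bound site. LIF, CSF1 and CSF3 were not in the promoter table.

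IL6, an inducer of the acute-phase response, is ENSG00000136244.12 at chromosome 7, 22725884 to 22732002, plus strand (GRCh38). At 0 h its level was 1.11, 1.55 and 1.55 CPM in the Mock libraries, 1.84, 0.772 and 1.66 CPM in the siNT libraries and 2.20, 3.19 and 2.53 CPM in the siELMO1 libraries. At 24 h it was 414, 444 and 423 CPM in the Mock libraries, 44.3, 47.1 and 42.8 CPM in the siNT libraries and 130.0, 125 and 174 CPM in the siELMO1 libraries. The order at 24 h was Mock, siELMO1, siNT with no overlap between libraries, and every 24 h library lay above every 0 h library. The rise was 302-fold in Mock (log2 8.24 ± 0.20 SE, adjusted p = 4.3e-16), 31.1-fold in siNT (log2 4.96 ± 0.19, adjusted p = 5.2e-13) and 55.3-fold in siELMO1 cells (log2 5.79 ± 0.19, adjusted p = 2.4e-14). At 24 h siNT was below Mock (log2 −3.26 ± 0.15, adjusted p = 4.3e-11), and siELMO1 lay between them, 3.19-fold above siNT (adjusted p = 3.2e-08) and below Mock (log2 −1.58 ± 0.14, adjusted p = 6.9e-08). At 0 h siELMO1 was above siNT (log2 0.84 ± 0.24, adjusted p = 0.0055) and above Mock (log2 0.86 ± 0.24, adjusted p = 0.0055). Both 0 h calls were lost in limma-voom (adjusted p = 0.062 and 0.079), and without siELMO1 replicate 1 the differences were 0.98 and 1.00.

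CSF3, ENSG00000108342.13 at chromosome 17, 40015361 to 40017813, plus strand, had the same order at 24 h. At 0 h it was at 3.88, 3.86 and 4.61 CPM in the Mock libraries, 3.31, 1.12 and 3.77 CPM in the siNT libraries and 3.08, 1.91 and 2.57 CPM in the siELMO1 libraries. At 24 h it was at 151, 139 and 172 CPM in the Mock libraries, 12.7, 14.7 and 16.0 CPM in the siNT libraries and 101, 90.9 and 129 CPM in the siELMO1 libraries. The siNT libraries at 24 h lay far below the others but above all 0 h libraries. CSF3 rose 37.3-fold in Mock (log2 5.22 ± 0.26, adjusted p = 7.1e-12), 5.24-fold in siNT (log2 2.39 ± 0.26, adjusted p = 4.2e-07) and 41.2-fold in siELMO1 cells (log2 5.36 ± 0.27, adjusted p = 1.4e-11). At 24 h siNT was below Mock (log2 −3.41 ± 0.23, adjusted p = 3.1e-09), and siELMO1 was 7.38-fold above siNT (adjusted p = 1.3e-08). The difference of siELMO1 from Mock at 24 h, −0.53 ± 0.20 (adjusted p = 0.046), is near the threshold. It was lost in DESeq2 (adjusted p = 0.18), with a different filter or none, and without Mock replicate 1, 2 or 3 or siELMO1 replicate 1 or 2 (adjusted p of 0.053 to 0.17). At 0 h no difference passed the test, although all 3 siNT and all 3 siELMO1 libraries were below the Mock libraries. CSF3 against Mock was lower in siNT without siNT replicate 3 (−0.88, adjusted p = 0.022) and in siELMO1 without siELMO1 replicate 1 (−0.86, adjusted p = 0.044).

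CSF2, ENSG00000164400.6 at chromosome 5, 132073789 to 132076170, plus strand, was the member with the largest difference between siNT and siELMO1 at 24 h. At 0 h it was at 0.382, 0.581 and 0.485 CPM in the Mock libraries, 1.03, 1.71 and 1.27 CPM in the siNT libraries and 0.870, 0.702 and 0.678 CPM in the siELMO1 libraries. After 24 h of poly(I:C) it reached 10.8, 4.37 and 10.4 CPM in the Mock libraries, 1.85, 1.59 and 1.82 CPM in the siNT libraries and 28.8, 25.4 and 32.0 CPM in the siELMO1 libraries. Unlike IL6 and CSF3, CSF2 was highest in siELMO1 cells, and at 24 h the siNT libraries overlapped those of siNT at 0 h. It rose 17.5-fold in Mock (log2 4.13 ± 0.30, adjusted p = 1.5e-09) and 37.7-fold in siELMO1 cells (log2 5.24 ± 0.30, adjusted p = 9.4e-11). In siNT the change was 0.39 ± 0.28 with a 95% interval of −0.19 to 0.98 (adjusted p = 0.24). At 24 h siELMO1 was 16.4-fold above siNT (log2 4.03 ± 0.28, adjusted p = 2.5e-09) and 3.38-fold above Mock (log2 1.76 ± 0.24, adjusted p = 1.4e-05), and siNT was below Mock (log2 −2.28 ± 0.26, adjusted p = 1.6e-06). Mock replicate 2, at 4.37 CPM from 264 counts, stood below the other two Mock libraries (567 and 606 counts). Without it siELMO1 was above Mock by 1.44 and siNT below Mock (log2 −2.59). The summed leukocyte markers were also highest in siELMO1 cells at 24 h, through LYZ, at a mean of 5.72 CPM, and their part in the CSF2 level was not tested. At 0 h the levels were low (25 to 104 counts a library), with siNT above Mock (log2 1.45 ± 0.31, adjusted p = 7e-04; 0.069 in limma-voom). At 0 h siELMO1 was below siNT (log2 −0.81 ± 0.30, adjusted p = 0.027), a call lost in limma-voom (adjusted p = 0.29) and without siNT replicate 2 (−0.60) or siELMO1 replicate 2 (−0.77) or 3 (−0.74).

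CSF1, ENSG00000184371.14 at chromosome 1, 109910242 to 109930992, plus strand, was at 6.11, 7.78 and 6.72 CPM in the Mock libraries, 17.2, 16.8 and 16.7 CPM in the siNT libraries and 13.2, 13.4 and 14.1 CPM in the siELMO1 libraries at 0 h. At 24 h it was at 68.3, 66.7 and 68.3 CPM in the Mock libraries, 64.2, 66.9 and 79.0 CPM in the siNT libraries and 92.0, 96.9 and 94.7 CPM in the siELMO1 libraries. The 3 groups did not overlap at 0 h, and at 24 h siELMO1 lay above Mock and siNT, which overlapped. At 0 h siNT was 2.46-fold above Mock (log2 1.30 ± 0.08, adjusted p = 7.1e-10), and siELMO1 was 1.97-fold above Mock (adjusted p = 2.2e-08) and below siNT (log2 −0.32 ± 0.08, adjusted p = 0.002). CSF1 rose 9.85-fold in Mock (log2 3.30 ± 0.08), 4.14-fold in siNT (log2 2.05 ± 0.08) and 6.97-fold in siELMO1 cells (log2 2.80 ± 0.08), with adjusted p of 4.1e-13 or less. At 24 h siELMO1 was 1.35-fold above siNT (adjusted p = 9.2e-05) and 1.40-fold above Mock (adjusted p = 4e-05), and siNT and Mock differed by 0.05 with a 95% interval of −0.11 to 0.20 (adjusted p = 0.62).

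LIF, ENSG00000128342.5 at chromosome 22, 30240453 to 30246759, minus strand, was at 0.580, 0.648 and 0.524 CPM in the Mock libraries, 0.791, 1.49 and 0.852 CPM in the siNT libraries and 0.979, 0.451 and 0.598 CPM in the siELMO1 libraries at 0 h (18 to 91 counts). After 24 h the values were 4.03, 4.58 and 4.34 CPM in the Mock libraries, 4.87, 6.10 and 5.16 CPM in the siNT libraries and 5.92, 5.48 and 6.51 CPM in the siELMO1 libraries. All 24 h libraries lay above all 0 h libraries. LIF rose 7.38-fold in Mock (log2 2.88 ± 0.26, adjusted p = 2.6e-08), 5.15-fold in siNT (log2 2.36 ± 0.25, adjusted p = 3e-07) and 8.57-fold in siELMO1 cells (log2 3.10 ± 0.26, adjusted p = 1.5e-08). At 24 h no pair of transfections differed past the threshold, and the 95% interval for siELMO1 against siNT was −0.33 to 0.63. At 0 h siNT was above Mock (log2 0.83 ± 0.26, adjusted p = 0.012), a call lost without Mock replicate 3 (0.72) or siNT replicate 2 (0.49) and with only the compared libraries (0.81). LIF in siELMO1 against siNT at 0 h was −0.58 ± 0.26 (adjusted p = 0.059) and passed the test without siELMO1 replicate 1 (−0.98, adjusted p = 0.0043), siNT replicate 1 (−0.75) or siNT replicate 3 (−0.71).

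IL11, ENSG00000095752.7 at chromosome 19, 55364382 to 55370463, minus strand, was at 1.73, 2.40 and 1.80 CPM in the Mock libraries, 3.25, 4.33 and 3.74 CPM in the siNT libraries and 3.51, 3.01 and 1.76 CPM in the siELMO1 libraries at 0 h. At 24 h it was at 1.67, 2.48 and 1.51 CPM in the Mock libraries, 4.43, 3.84 and 3.22 CPM in the siNT libraries and 1.24, 1.38 and 1.62 CPM in the siELMO1 libraries. The siNT group had the highest mean at both times, and at 0 h its libraries overlapped those of siELMO1, whose replicate 1 lay above siNT replicate 1. The siELMO1 libraries were all lower at 24 h than at 0 h. The poly(I:C) difference was −0.07 ± 0.25 in Mock (95% interval −0.59 to 0.46) and 0.02 ± 0.24 in siNT (−0.49 to 0.53), and neither passed the test. In siELMO1 cells IL11 fell by 0.97 ± 0.25 on the log2 scale (adjusted p = 0.0035). At 24 h siELMO1 was below siNT (log2 −1.44 ± 0.25, adjusted p = 0.00013), and siNT was above Mock by 1.02 ± 0.25 (adjusted p = 0.0025). At 0 h siNT was above Mock by 0.93 ± 0.25 (adjusted p = 0.0041), and siELMO1 differed from neither past the threshold. IL11 in siELMO1 at 0 h was below siNT without siELMO1 replicate 1 (−0.67, adjusted p = 0.038) and above Mock without siELMO1 replicate 3 (0.72, adjusted p = 0.017).

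**Figure D2:**
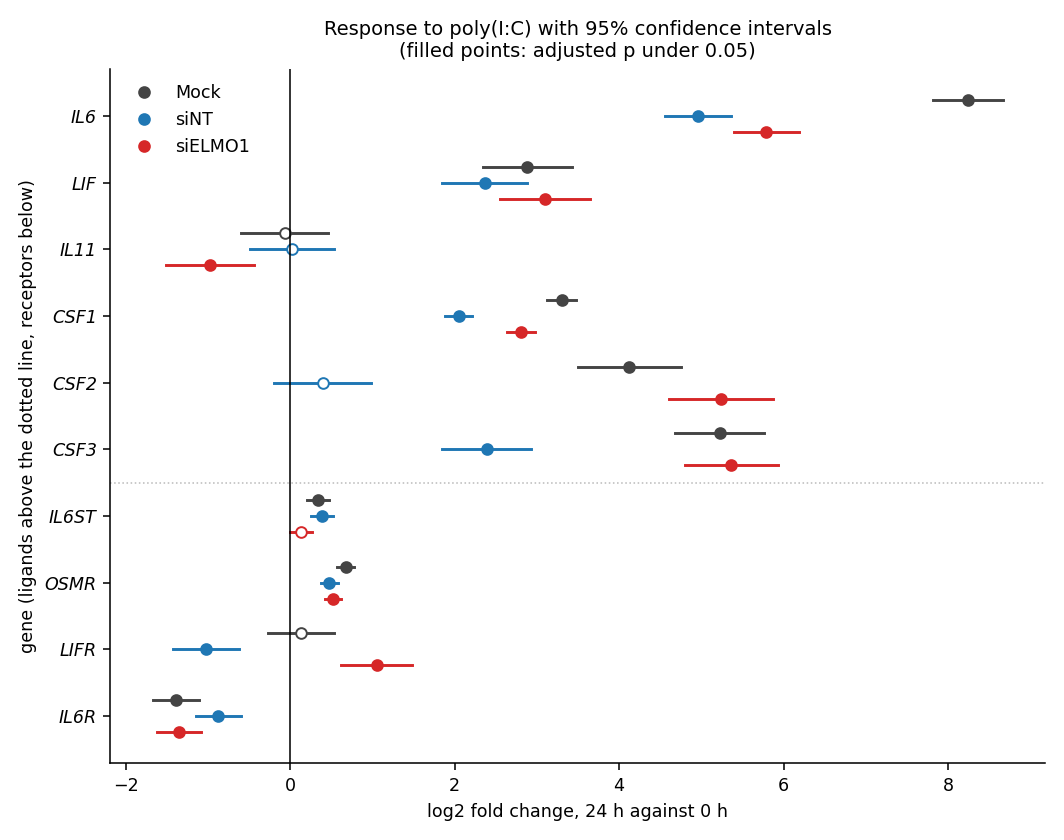
Log2 fold change from 0 h to 24 h of poly(I:C) for each gene in Mock, siNT and siELMO1 cells, with 95% confidence intervals as lines and filled points where the adjusted p was under 0.05. CSF2 in siNT cells (0.39) was the ligand response closest to 0 apart from IL11, and LIFR fell in siNT (−1.03) and rose in siELMO1 cells (1.05).

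IL6ST, the shared signalling chain gp130, is ENSG00000134352.21 at chromosome 5, 55935095 to 55995022, minus strand. At 0 h it was at 625, 627 and 645 CPM in the Mock libraries, 952, 870.2 and 981 CPM in the siNT libraries and 847, 860.2 and 896 CPM in the siELMO1 libraries. The 24 h values were 828, 728 and 845 CPM in the Mock libraries, 1284, 1166 and 1209 CPM in the siNT libraries and 934, 891 and 1028 CPM in the siELMO1 libraries. Mock was the lowest and siNT the highest group at 24 h, with no overlap of siNT with the others. IL6ST rose 1.27-fold in Mock (adjusted p = 0.00017) and 1.31-fold in siNT cells (adjusted p = 6.1e-05). In siELMO1 cells the change was 0.13 ± 0.06 on the log2 scale (adjusted p = 0.088), and it passed the test without siELMO1 replicate 2 at 24 h (0.18, adjusted p = 0.04). At 0 h siNT was 1.48-fold (adjusted p = 9.2e-07) and siELMO1 1.37-fold (adjusted p = 1e-05) above Mock. At 24 h siNT was 1.52-fold above Mock (adjusted p = 5.1e-07), siELMO1 was 1.19-fold above Mock (adjusted p = 0.004), and siELMO1 was below siNT (log2 −0.36 ± 0.06, adjusted p = 0.00014).

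OSMR, the oncostatin M receptor chain, is ENSG00000145623.13 at chromosome 5, 38845858 to 38945596, plus strand. At 0 h it was at 82.4, 81.1 and 83.1 CPM in the Mock libraries, 116, 111 and 114 CPM in the siNT libraries and 126, 138 and 133 CPM in the siELMO1 libraries. At 24 h it was at 131, 124 and 139 CPM in the Mock libraries, 163, 151 and 159.8 CPM in the siNT libraries and 191, 182 and 196 CPM in the siELMO1 libraries. The order Mock, siNT, siELMO1 held at both times with no overlap of libraries. OSMR rose 1.60-fold in Mock (log2 0.67 ± 0.05, adjusted p = 1.6e-09), 1.39-fold in siNT (log2 0.47 ± 0.05, adjusted p = 2.4e-07) and 1.44-fold in siELMO1 cells (log2 0.52 ± 0.05, adjusted p = 6.1e-08). siELMO1 was above siNT by 0.22 ± 0.05 at 0 h (adjusted p = 0.00072) and by 0.27 ± 0.05 at 24 h (adjusted p = 0.00017), and above Mock by 0.69 ± 0.05 and 0.53 ± 0.05 (adjusted p of 2.2e-09 and 1.1e-07). siNT was above Mock by 0.47 ± 0.05 at 0 h (adjusted p = 3.7e-07) and by 0.27 ± 0.05 at 24 h (adjusted p = 0.00019).

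LIFR, the receptor chain for LIF, is ENSG00000113594.10 at chromosome 5, 38474668 to 38608354, minus strand. At 0 h it was at 8.89, 10.6 and 11.1 CPM in the Mock libraries, 23.9, 22.1 and 21.3 CPM in the siNT libraries and 3.00, 3.66 and 3.77 CPM in the siELMO1 libraries. With poly(I:C) it was at 9.07, 10.7 and 13.7 CPM in the Mock libraries, 11.3, 9.03 and 12.7 CPM in the siNT libraries and 5.80, 5.76 and 10.1 CPM in the siELMO1 libraries. The 3 groups stood apart at 0 h, siNT highest and siELMO1 lowest, and at 24 h Mock and siNT overlapped each other and siELMO1 overlapped both through its replicate 3. At 0 h siELMO1 was 6.49-fold below siNT (log2 −2.70 ± 0.21, adjusted p = 3.2e-09) and 2.95-fold below Mock (log2 −1.56 ± 0.20, adjusted p = 5e-06), and siNT was 2.20-fold above Mock (adjusted p = 7.6e-05). Without siELMO1 replicate 1 the first of these differences was −2.59 and the second −1.46. From 0 h to 24 h LIFR fell by 1.03 ± 0.19 in siNT (adjusted p = 2e-04) and was at 0.13 ± 0.19 in Mock (95% interval −0.27 to 0.53). In siELMO1 cells LIFR rose by 1.05 ± 0.21 (adjusted p = 3e-04). That rise ran from 0.74 to 1.19 with each library left out in turn (0.95 without siELMO1 replicate 1 at 0 h) and stayed called. At 24 h siELMO1 was still below siNT (−0.62 ± 0.19, adjusted p = 0.013) and Mock (−0.64 ± 0.19, adjusted p = 0.013). The first call was lost without siNT replicate 3 (−0.50) or siELMO1 replicate 1 (−0.48) or 2 (−0.48), and the second without Mock replicate 3 (−0.46) or siELMO1 replicate 1 (−0.50) or 2 (−0.50), or with only the compared libraries (−0.63). siNT and Mock differed by −0.02 at 24 h (95% interval −0.42 to 0.38).

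IL6R, the binding receptor for IL6, is ENSG00000160712.13 at chromosome 1, 154405193 to 154469450, plus strand. At 0 h it was at 9.28, 10.1 and 9.85 CPM in the Mock libraries, 10.9, 10.4 and 13.8 CPM in the siNT libraries and 21.5, 20.4 and 19.7 CPM in the siELMO1 libraries. At 24 h it was at 3.78, 2.99 and 4.41 CPM in the Mock libraries, 6.28, 7.23 and 5.68 CPM in the siNT libraries and 7.65, 8.54 and 8.06 CPM in the siELMO1 libraries. Every transfection had lower libraries at 24 h than at 0 h, and siELMO1 was the highest group at both times. IL6R fell by 1.39 ± 0.13 on the log2 scale in Mock (adjusted p = 6.6e-08), by 0.87 ± 0.13 in siNT (adjusted p = 1.8e-05) and by 1.35 ± 0.13 in siELMO1 cells (adjusted p = 7.8e-08). At 0 h siELMO1 was 1.76-fold above siNT (adjusted p = 2e-05) and 2.11-fold above Mock (adjusted p = 1.4e-06). At 24 h siELMO1 was 2.17-fold (adjusted p = 2.6e-06) and siNT 1.71-fold (adjusted p = 0.00011) above Mock. The difference of siELMO1 from siNT at 24 h, 0.34 ± 0.13 (adjusted p = 0.036), was lost without siNT replicate 1 (0.32) or 3 (0.26) or siELMO1 replicate 2 (0.30) or 3 (0.34), with library totals in place of TMM, and with another filter or none.

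**Figure D3:**
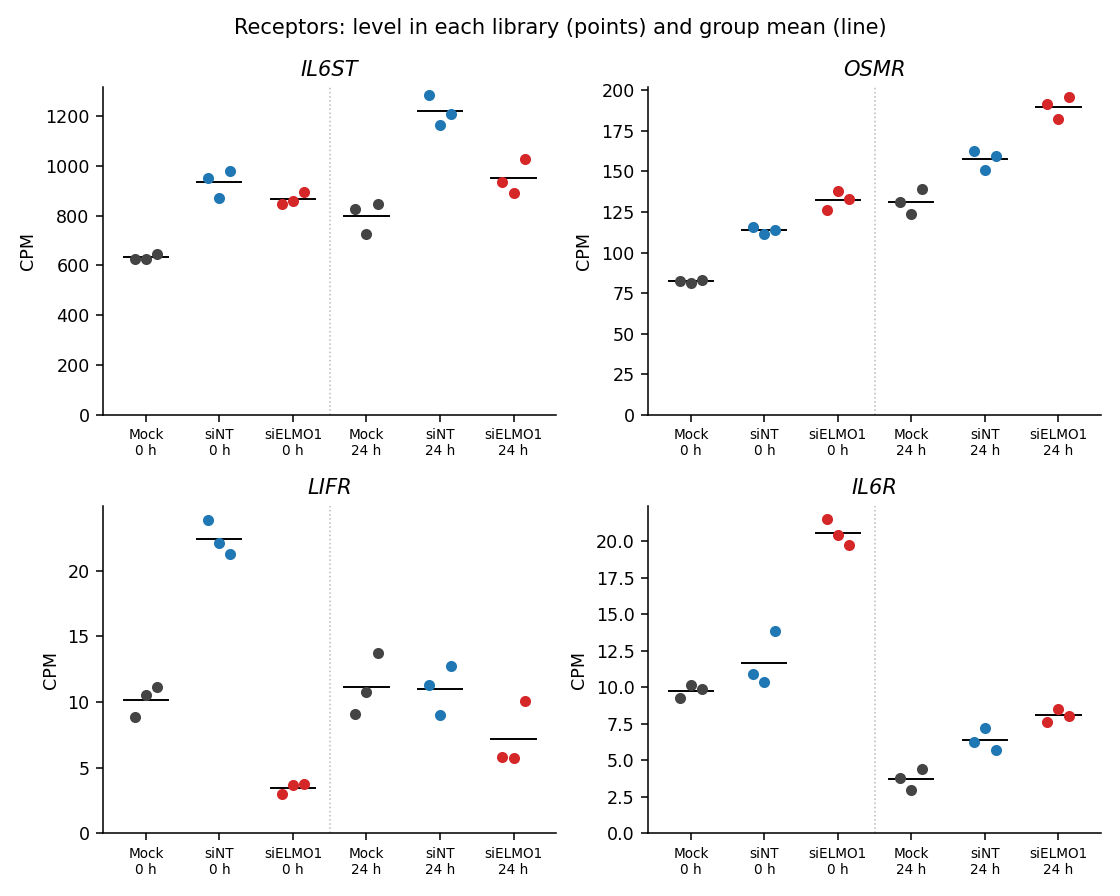
CPM after TMM scaling of the 4 receptors (linear axes from 0) in each of the 3 libraries of every condition, with the group mean as a line. LIFR ran from a mean of 3.48 CPM in siELMO1 to 22.4 CPM in siNT cells at 0 h, and IL6R was lower at 24 h than at 0 h in all 3 transfections.

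By comparison, at 0 h 6 of the 10 genes were called between siELMO1 and siNT (62.6% of all genes tested), 6 between siELMO1 and Mock (50.2%) and 7 between siNT and Mock (51.6%). All 7 of the last were higher in siNT: LIF, IL11, CSF1, CSF2, IL6ST, OSMR and LIFR, where 27.6% of all genes were higher. At 24 h 9 were called between siELMO1 and siNT (52.6% of all genes), 8 between siELMO1 and Mock (43.6%) and 7 between siNT and Mock (50.2%). These comparisons share their groups, so their counts are not independent. For siNT against Mock at 24 h, libraries of equal replicate number had correlated deviations from their group means. There the fit with the replicate number as a block kept every call and non-call of the 10 genes. Without siELMO1 replicate 1 the counts at 0 h were 8 against siNT and 7 against Mock, through LIF, IL11 and CSF3. Those counts rest on siELMO1 replicates 2 and 3, the libraries with the highest mitochondrial shares.

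**Figure D4:**
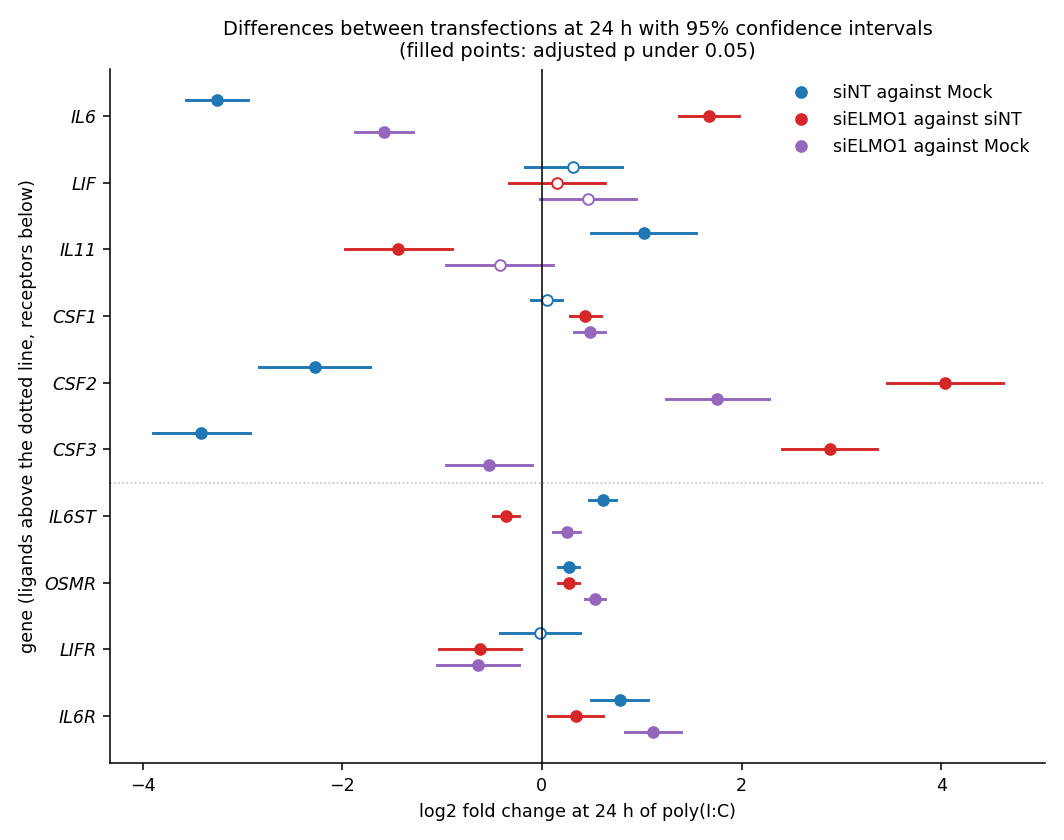
Log2 fold change between transfections at 24 h of poly(I:C), with 95% confidence intervals as lines and filled points where the adjusted p was under 0.05. IL6, CSF2 and CSF3 were below Mock in siNT (−3.26, −2.28 and −3.41) and above siNT in siELMO1 cells (1.67, 4.03 and 2.88), and against Mock siELMO1 was lower for IL6 and higher for CSF2.

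The poly(I:C) responses themselves were compared as interactions in the same model. Between siNT and Mock 7 of the 10 responses differed (31% of all genes tested), between siELMO1 and siNT 8 (34.5%) and between siELMO1 and Mock 3 (28.3%). The response in siNT was smaller than in Mock, with a log2 difference of −3.28 ± 0.30 for IL6, −3.73 ± 0.40 for CSF2, −2.83 ± 0.35 for CSF3 and −1.25 ± 0.11 for CSF1 (adjusted p of 9.5e-06 or less). For CSF1, siNT was above Mock at 0 h (log2 1.30), and the 24 h difference of 0.05 did not pass the test. The response in siELMO1 was larger than in siNT by 4.84 ± 0.40 for CSF2, 2.97 ± 0.37 for CSF3 and 0.75 ± 0.11 for CSF1 (adjusted p of 3.5e-05 or less), and by 0.83 ± 0.28 for IL6 (adjusted p = 0.029). LIFR fell in siNT and rose in siELMO1 cells, a difference of 2.08 ± 0.28 (adjusted p = 1.7e-05). Between siELMO1 and Mock the IL6 response (−2.45 ± 0.27, adjusted p = 3.4e-06), the CSF1 response (−0.50 ± 0.11, adjusted p = 0.0025) and the LIFR response (0.92 ± 0.28, adjusted p = 0.02) differed. The CSF3 responses in siELMO1 and Mock differed by 0.14 with a 95% interval of −0.59 to 0.88. The IL6 difference between siELMO1 and siNT was lost in limma-voom (adjusted p = 0.18), with only the compared libraries, and without siNT replicate 1 or 3, siELMO1 replicate 1 or 3 at 0 h or siELMO1 replicate 3 at 24 h (0.61 to 0.82, adjusted p of 0.051 to 0.15). The LIFR difference between siELMO1 and Mock was lost without siELMO1 replicate 3 at 24 h (0.61, adjusted p = 0.055).

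Levels of different genes were set side by side per kb of the transcript with the most counts. At 0 h IL6ST was the most abundant of the 10 in every transfection, at 70.1 ± 1.21 CPM per kb (SD, n = 3) in Mock, 103.5 ± 6.36 in siNT and 96.1 ± 2.78 in siELMO1 cells, followed by OSMR at 14.9 ± 0.178, 20.6 ± 0.374 and 24.0 ± 1.04. All other members were at 4.23 CPM per kb or less at 0 h. At 24 h in Mock cells IL6, at 379 ± 13.9, stood above CSF3 at 102 ± 11.3 and IL6ST at 88.7 ± 7.00 CPM per kb. In siELMO1 cells IL6 (127 ± 23.9) and IL6ST (105 ± 7.76) were followed by CSF3 (71.0 ± 13.1), CSF2 (36.4 ± 4.15) and OSMR (34.4 ± 1.26), and in siNT cells IL6ST (135 ± 6.62) was the most abundant and IL6 next (39.7 ± 1.91). LIFR and IL6R stayed between 0.330 and 3.57 CPM per kb in all 6 conditions, far below IL6ST. With the length of the longest transcript, a retained-intron form, IL6 was at 129 CPM per kb in Mock cells at 24 h and still above CSF3 and IL6ST. In siELMO1 cells it was then at 43.0, below IL6ST and CSF3 (63.8), and in siNT cells at 13.5, below IL6ST, OSMR (28.6) and CSF1 (17.5). For IL6ST the transcript used, of 9.03 kb, was also its longest and held 29.5% of its counts. This alternative therefore left IL6ST unmoved, and a shorter length would raise it. Its order with IL6 in siELMO1 cells and with CSF3 in Mock cells at 24 h was not tested for such a length.

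**Figure D5:**
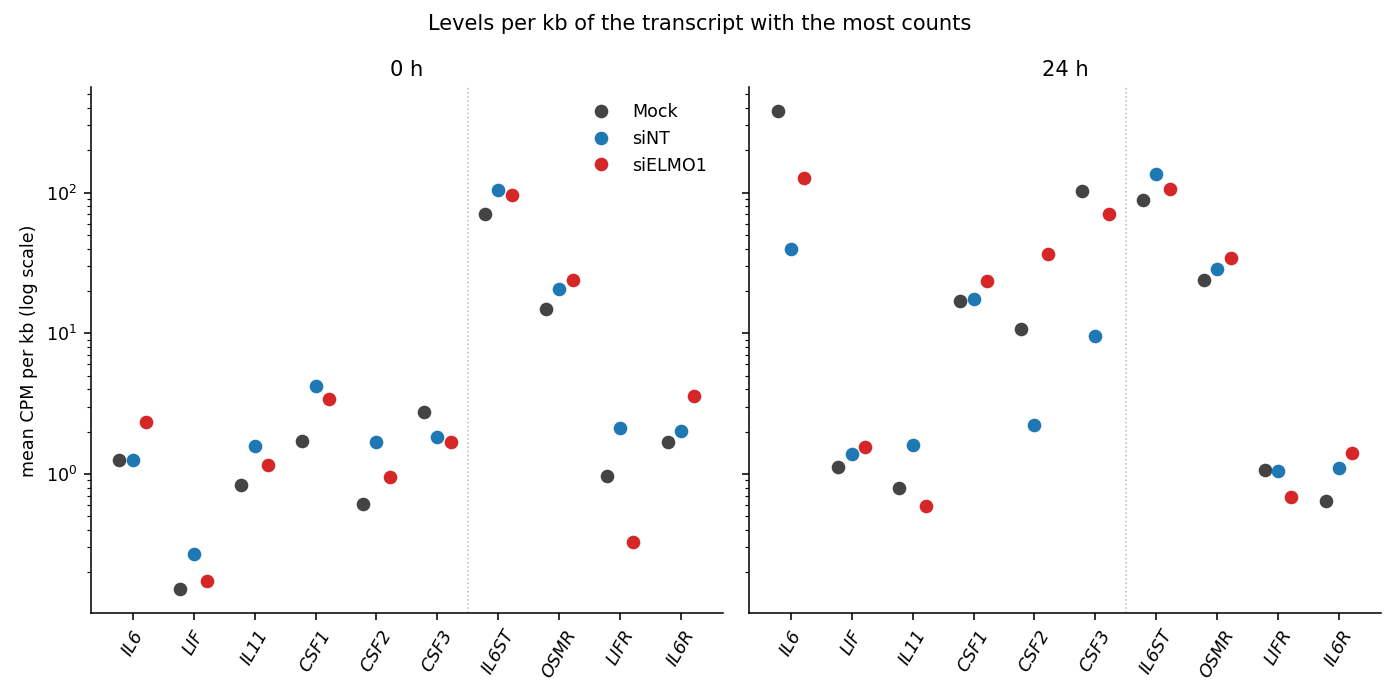
Mean CPM per kb (log axis) of the 10 genes at 0 h and at 24 h of poly(I:C) in Mock, siNT and siELMO1 cells (3 libraries each), per kb of the transcript with the most counts. IL6ST led at 0 h, and at 24 h IL6 was above it in Mock (379 against 88.7) and siELMO1 cells (with this transcript length) but not in siNT cells.

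The counts of most members came from 1 annotated transcript: LIF-201 held 99.7%, LIFR-202 99.6%, OSMR-201 96.5%, CSF1-201 95.8%, IL6R-202 93.6%, IL11-201 89.0% and IL6-201 86.7% of the gene's counts over all libraries, and CSF2 has 1 transcript. These pooled shares are set mostly by the libraries with many counts. At 0 h IL6-201 held a mean of 62.5% in Mock, 43.7% in siNT (36.6% to 54.1%) and 70.8% in siELMO1 cells, against 85.4% to 87.7% at 24 h, and IL11-201 held as little as 62.5% in a siELMO1 library at 0 h. CSF3 was divided among CSF3-204 (43.3%), CSF3-201 (27.9%) and CSF3-202 (21.1%), and IL6ST over 25 transcripts, of which IL6ST-204 held 29.5%. The IL6ST-204 share was unstable, from 5.015% to 73.4% among the siNT libraries at 0 h alone. IL6ST-218 and IL6ST-219, annotated as nonsense-mediated decay forms, held 21.4% and 10.6% of the IL6ST counts. IL6R-201 lacks the 94-base exon of IL6R-202 at chromosome 1, 154454488 to 154454581, a skip known to give a soluble receptor. It held 22.6%, 11.6% and 0% of IL6R counts in the Mock libraries at 24 h, 10.3%, 8.40% and 9.85% in siNT and 4.75%, 3.27% and 0% in siELMO1 cells, against 0% to 3.13% at 0 h. These shares rest on 0 to 45 estimated counts a library, the Mock and siELMO1 groups each hold a library at 0, and no test was made. Genes on the opposite strand overlap IL6 (STEAP1B, IL6-AS1), LIF (LIF-AS1, LIF-AS2), IL6ST (unnamed genes), OSMR (RICTOR), LIFR (LIFR-AS1) and IL6R (IL6R-AS1, PSMD8P1). The kit keeps strand, but whether the counting used it is not given in the sources used here, so reads of these overlaps cannot be told apart.

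Other genes listed with the gp130 family, IL31 and IL31RA among them, were mostly low, with 7 of 12 ligands and receptors tested. In CPM, which is not scaled to transcript length, IL31RA was the highest of them, with group means of 48.54 to 83.15 CPM. EBI3, a subunit of the cytokines IL27 and IL35, rose in all 3 transfections, from a mean of 4.02 ± 1.18 to 18.3 ± 3.88 CPM in Mock (log2 2.18), from 5.61 ± 0.286 to 18.0 ± 2.90 CPM in siNT (1.68) and from 6.98 ± 1.58 to 40.1 ± 2.33 CPM in siELMO1 cells (2.51; adjusted p of 1e-06 or less). IL27RA rose by 0.69, 0.42 and 1.10 (adjusted p of 0.00021 or less). IL11RA, the IL11 receptor, fell in Mock cells, from 1.12 ± 0.201 to 0.275 ± 0.251 CPM (−2.01, adjusted p = 0.0065), and CNTF fell there too (−1.23, adjusted p = 0.036). In all, 3 genes of this list rose and 3 fell in Mock, 3 rose in siNT, and 2 rose and 1 fell in siELMO1 cells, where 60.3%, 53.8% and 54.9% of all genes tested were called. The 3 of 7 called in siNT and in siELMO1 cells are a smaller share than that of all genes.

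Of the other colony-stimulating factor ligands and receptors, 4 of 11 were tested. FLT3LG, a growth factor of dendritic cell precursors, rose from 4.29 ± 0.357 to 10.6 ± 0.860 CPM in Mock, from 2.45 ± 0.475 to 6.54 ± 1.13 CPM in siNT and from 4.05 ± 0.444 to 8.81 ± 0.462 CPM in siELMO1 cells (adjusted p of 4.4e-06 or less). IL3RA rose by 3.22, 3.21 and 3.13 on the log2 scale (adjusted p of 5.3e-06 or less). Its gene has copies on both sex chromosomes with 1 row each, reads of which cannot be told apart, and 1 row is given. CSF1R and CSF3R, the receptors of CSF1 and CSF3, and CSF2RA did not pass the filter. CSF2RB, a chain of the CSF2 receptor, passed it, with group means of 9.44 (Mock at 24 h) to 18.6 CPM (siNT at 24 h). KITLG passed too, with group means of 58.7 (siELMO1 at 24 h) to 108 CPM (siNT at 0 h). In all, 2 genes of this list rose and none fell in Mock (60.3% of all genes called) and in siNT (53.8%), and 2 rose and 1 fell in siELMO1 cells (54.9%), too few genes to set apart from all genes.

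Of 18 listed kinases, STAT factors, adaptors, inhibitors and receptor-shedding proteases, 17 were tested, of which 9 rose and 2 fell in Mock (60.3% of all genes called), 9 rose and 2 fell in siNT (53.8%) and 9 rose and 6 fell in siELMO1 cells (54.9%). In Mock the share called was near that of all genes. STAT3 rose by 0.87, 0.87 and 0.58 on the log2 scale. Its level went from 93.3 ± 1.89 to 171 ± 13.1 CPM in Mock and from 70.4 ± 4.90 to 128 ± 15.2 CPM in siNT. In siELMO1 cells, the highest group at both times, it went from 184 ± 0.322 to 274 ± 10.7 CPM. JAK2 rose 2.00 in Mock, 1.00 in siNT and 1.77 in siELMO1 cells on the log2 scale (adjusted p of 6.8e-08 or less). SOCS1, a feedback inhibitor of JAK kinases, began at 3.70 ± 0.819 CPM in Mock, 9.15 ± 0.638 in siNT and 2.04 ± 0.533 in siELMO1 cells and reached 10.8 ± 1.04, 12.0 ± 0.984 and 12.1 ± 1.38 CPM. SOCS2 fell in siELMO1 cells, from 8.08 ± 0.721 to 3.61 ± 0.539 CPM (−1.15, adjusted p = 1.7e-07), and in siNT cells by 0.31 (adjusted p = 0.023).

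For each member the 3 genes with the most alike pattern were taken by Pearson's r of log2(CPM + 0.5) over the 18 libraries, among 12863 genes, which is a description of libraries that share their conditions. IL6 was most like WARS1 (r = 0.995), CXCL8 (0.993) and HDAC9 (0.992). The 3 nearest CSF3 included NFKBIZ (0.987) and CXCL1 (0.986), and CSF2 was most like TNF (0.977), LTB (0.974) and MT-TF (0.969). CSF1 was most like LGALS3BP (0.993), ACSL5 (0.990) and ADGRE1 (0.988), and LIF like PDCD1LG2 (0.984), ADGRE1 (0.983) and RTP4 (0.981). IL11 had lower values, with WDR47 (0.895), OCIAD2 (0.886) and RGS14 (0.885). Among the receptors, IL6ST was most like ANTXR2 (0.957), CDC42SE1 (0.957) and STX6 (0.955), OSMR like UXS1 (0.987), ARF3 (0.985) and PRRG1 (0.966), LIFR like EXOSC9 (0.957), TRAF5 (0.943) and C1orf174 (0.931), and IL6R like SNX25 (0.979) and CLCN3 (0.979).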

How the data were processed

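RNA of EA.hy926 cells in 6 conditions with 3 biological replicates each (18 libraries) was sequenced from a stranded mRNA kit. STAR (alignment to GRCh38) and StringTie (quantification) were run by the authors, who deposited matrices of estimated counts (expected counts, whole numbers, not normalized) per gene and per transcript. A count is converted from coverage and need not equal 1 read, and the mean total was 60.6 M. This is more than the average number of paired-end reads per sample that the paper reports. Small counts thus rest on fewer sequenced fragments than their number. Of 62754 gene identifiers, 62700 were in GENCODE v44 (GRCh38), the source of coordinates and transcript lengths.

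Genes were kept when their counts summed to 100 or more and at least 1 library reached 1 CPM (15167; 24784 were 0 throughout). One edgeR 4.0.16 model (R 4.3.3) with TMM factors (0.958 to 1.06) was fitted to all 18 libraries, and the two-sided quasi-likelihood test was applied to 12 comparisons, with Benjamini-Hochberg adjustment over all genes tested and a threshold of 0.05. The biological coefficient of variation was 12.2%. In simulated counts for poly(I:C) in Mock, 200 of 15167 genes were changed, all drawn from those with a mean over 2 CPM. Of these, 97% of 100 genes changed 2-fold and 98% of 100 changed 4-fold were recovered, with 5 false calls among the unchanged genes. Recovery at lower levels was not tested.

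Whether equal replicate numbers pair libraries was tested by the correlation, over 9640 genes, of their deviations from the group means. In 1 of 15 pairs of groups, Mock and siNT at 24 h, all 3 correlations were over 0.1 (0.215, 0.278 and 0.326). There the blocked fit is reported beside any call that it alters.

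The members and gene lists were chosen with earlier results of these data known. Named genes were all members, ELMO1, the 3 genes most like each member and at most 4 of each pathway list. The latter were taken by the largest fold change past adjusted p and a fold of 2. STAT3, IL31RA, CSF2RB and KITLG, among others, are named in addition. Some genes that this rule takes are not reported here. Alternatives were limma-voom 3.58.1, DESeq2 1.42.0, library totals, upper-quartile factors, edgeR's own filter or none, only the libraries compared, the replicate block and each library left out. The study's covariates and its comparison tables were not used here.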

Additional observations from a re-analysis of the deposited data

Results flagged for a closer look

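The poly(I:C) response of some members differed between transfections when the difference itself was tested as an interaction in edgeR, with Benjamini-Hochberg adjustment over all genes. The 3 sets of differences share groups.

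Between siELMO1 and siNT the differences on the log2 scale were 0.83 for IL6, −0.99 for IL11, 0.75 for CSF1, 4.84 for CSF2, 2.97 for CSF3, −0.25 for IL6ST, 2.08 for LIFR and −0.48 for IL6R. Those for IL11, IL6ST and IL6R had adjusted p of 0.036, 0.037 and 0.049. The call of IL11 was lost without 8 of 12 libraries (siNT replicates 1 and 3 and siELMO1 replicates 1 and 2 at 0 h, and replicates 1 and 2 of both at 24 h; −0.99 to −0.77), and that of IL6ST without 6 (siNT replicate 2 and siELMO1 replicates 2 and 3 at 0 h, siNT replicate 1 and siELMO1 replicates 1 and 2 at 24 h; −0.26 to −0.20). The call of IL6R was lost without 10 of the 12, all but siNT replicate 3 at either time (−0.52 to −0.38). All 3 were also lost with no filter on low counts. LIF differed only without siELMO1 replicate 1 at 0 h (1.13, adjusted p = 0.012; 0.73 and 0.11 with it).

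Between siELMO1 and Mock the differences were −2.45 for IL6, −0.50 for CSF1 and 0.92 for LIFR.

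Between siNT and Mock they were −3.28 for IL6, −1.25 for CSF1, −3.73 for CSF2, −2.83 for CSF3, −0.20 for OSMR, −1.16 for LIFR and 0.52 for IL6R. Those of OSMR (adjusted p = 0.034) and IL6R (0.04) were each lost with no filter on low counts and without 8 of 12 libraries. For OSMR these were Mock replicates 1, 2 and 3 and siNT replicates 1 and 3 at 0 h, and Mock replicates 1 and 3 and siNT replicate 2 at 24 h (−0.20 to −0.16). For IL6R they were Mock replicates 2 and 3 and siNT replicates 1 and 2 at 0 h, and replicates 1 and 2 of both at 24 h (0.38 to 0.55).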

How the results depend on the processing

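Over 10 genes and 12 comparisons, 120 values were recomputed, of which 86 were called. No called value changed direction under any alternative run, and 73 of the 86 calls held with each library left out. The count of members called moved by over 1.5 times in 2 comparisons, both of poly(I:C) responses. Between siELMO1 and Mock it was 3, and 5 with DESeq2, 5 with the replicate number as a block, and 3 to 6 with a library left out; CSF2 (1.11, adjusted p = 0.051) was the gene nearest the threshold. Without siELMO1 replicate 1 at 0 h it was 5, without Mock replicate 2 at 24 h 6 and without Mock replicate 3 at 24 h 5. Between siELMO1 and siNT it was 8, and 5 with no filter on low counts and 5 to 8 with a library left out, 5 without siNT replicate 1 or siELMO1 replicate 2 or 3 at 0 h or without siNT replicate 1 or siELMO1 replicate 1 or 2 at 24 h. The causes were not tested. Apart from Mock and siNT at 24 h, no pair of groups had all 3 correlations between equal replicate numbers over 0.1. At 24 h, siELMO1 reached 0.178 and 0.425 with siNT and 0.153 and 0.358 with Mock for replicates 2 and 3. Whether those libraries are paired was not settled by this check. The block changed 6 single calls, 5 gained and 1 lost. The lowest levels, LIF, CSF2 and IL6 at 0 h, rest on 18 to 162 estimated counts a library, and on fewer sequenced fragments, which limits the precision of their fold changes.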

Other observations

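Regulators of cytokine mRNA turnover, listed and counted together with their target NFKBIZ, were all expressed (12 of 12 tested). With poly(I:C), 9 rose and 2 fell in Mock (60.3% of all genes called), 6 rose and 3 fell in siNT (53.8%) and 7 rose and 2 fell in siELMO1 cells (54.9%). The median log2 fold changes were 1.10, 0.24 and 0.58 against medians over all genes within 0.041 of 0. The responses in siNT were smaller than in Mock for 8 of the 12 and larger for 1, where 31% of all genes differed, and those in siELMO1 were larger than in siNT for 4 and smaller for none, near the 34.5% of all genes that differed there. NFKBIZ, an NF-kB cofactor whose own mRNA is a target of such regulators, was at 271 ± 16.6 CPM in Mock, 41.4 ± 6.71 in siNT and 186 ± 32.0 in siELMO1 cells at 24 h, from 12.2 to 15.7 CPM at 0 h. ZC3H12A (Regnase-1), which cleaves IL6 mRNA, was at 39.4 ± 6.34, 8.45 ± 1.60 and 52.9 ± 6.97 CPM at 24 h, from 3.10 to 4.32 CPM. Its relative ZC3H12C rose by 2.37, 0.91 and 2.15 on the log2 scale, and ARID5A, which stabilizes IL6 mRNA, by 2.00, 1.10 and 1.15 (edgeR adjusted p of 1.1e-07 or less).

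Of 20 listed STAT3 target genes 14 were tested, of which 10 rose and 2 fell in Mock (60.3% of all genes called), 8 rose and 2 fell in siNT (53.8%) and 8 rose and 1 fell in siELMO1 cells (54.9%), with medians of 0.57, 0.41 and 0.33. CEBPD, a C/EBP factor of the acute-phase response, rose from 3.03 ± 0.179 to 47.6 ± 7.37 CPM in Mock, from 2.55 ± 0.315 to 8.49 ± 2.92 in siNT and from 4.62 ± 0.296 to 47.9 ± 3.09 in siELMO1 cells. JUNB rose by 2.68, 1.68 and 1.93 and BCL6 by 1.75, 0.89 and 0.96 on the log2 scale (edgeR adjusted p of 6.1e-07 or less). CCND1, a cyclin of the G1 phase, changed little with poly(I:C) and differed between transfections, with 0 h levels of 998 ± 14.7 CPM (Mock), 2409.8 ± 33.8 CPM (siNT) and 517 ± 22.1 CPM (siELMO1). Many of these genes are also targets of other factors, so the counts are not a measure of STAT3 activity.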
